A study of Homo sapiens with 4 samples.

Results

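Tight junction genes encode the proteins that seal the space between neighbouring epithelial cells. The 9 genes described here, CLDN1, CLDN4, CLDN7, OCLN, MARVELD2, F11R, TJP1, TJP3 and CGN, were taken by gene symbol from a table of 58825 genes, and each symbol matched 1 row. All 9 averaged 1 FPKM or more (fragments relative to transcript length and library total, a level that is comparable between genes of different length) in at least 1 group and so were tested, among 12411 genes that did. The choice of genes did not use measured values as a rule, although earlier results on these data were known when they were listed.

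In a tight junction, transmembrane proteins meet their counterparts on the next cell, and a plaque of cytoplasmic proteins ties them to the actin cytoskeleton. Claudins form the strands and set which ions pass, occludin and tricellulin share a MARVEL domain and add to the strands and to the points where cells meet at corners, and junctional adhesion molecules of the immunoglobulin family help to start the junction. In the epidermis functional tight junctions lie in the granular layer, and mice without claudin 1 die soon after birth from water loss through the skin.

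The data were 4 RNA-seq libraries of HaCaT, an established line of human keratinocytes that multiplies without a viral oncogene, kept in MEPICF500 medium with 1.2 mM calcium, a level at which keratinocytes form contacts and differentiate. Every library came from cells given a lentivirus, which carried a control hairpin (shNC) in the control group and a hairpin aimed at lnc-DC, a long noncoding RNA, in the knockdown group (shlnc-DC). Each group had 2 libraries, which the labels call biological replicates without saying whether they were separate cultures or transductions, so p-values cover only how far these libraries differ, which may be technical. How many hairpins were used against lnc-DC is not given in the sources used here, and no agent other than the virus and calcium is named.

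lnc-DC is transcribed from WFDC21P, which was listed at 2.15 and 2.76 FPKM in control and at 0.09 and 0.29 FPKM in knockdown libraries, without overlap (limma adjusted p = 0.0715). Of 8 keratinocyte and epithelial markers 7 exceeded 1 FPKM in all 4 libraries, and the basal keratin KRT14 stayed at or under 0.35 FPKM. The summed level of these markers was 536 to 572 FPKM in control and 366 to 414 FPKM in knockdown libraries, and that of 4 keratins of simple epithelia was 988 to 1051 and 783 to 816 FPKM. In the first list 3 of 8 genes lay lower without overlap (KRT5, KRT14 and the adhesion gene CDH1) and in the second 3 of 4 (KRT8, KRT18 and KRT19), and none lay higher. Of all tested genes 19.2% lay lower without overlap and 35.6% higher. KRT14 was below the filter of 1 FPKM and so is not covered by these shares. Single genes carried much of each sum: without KRT5 the first was 266 to 268 in control and 242 to 258 FPKM in knockdown libraries, and without KRT19 the second was 653 to 680 and 584 to 614 FPKM. The part of these shifts in the results was not tested. Fibroblast, blood cell and melanocyte markers summed to at most 0.68, 0.22 and 0.67 FPKM in a library, and among 4 endothelial markers only CDH5 exceeded 1 FPKM (3.52 to 6.42) while PECAM1 did not exceed 0.01. Mitochondrially encoded transcripts took 41.2% and 41.9% of summed FPKM in the control and 28.1% and 26.8% in the knockdown libraries, and the number of reads per library was not part of the table, so depth and counting error of each value are unknown.

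Among the 9 genes F11R rose in the knockdown and none fell at an adjusted p under 0.05, while the other 8 did not pass. Of all tested genes 0.25% were called, 0.113% in the higher and 0.137% in the lower direction. At an unadjusted p under 0.05 there were 5 of 9 genes, 1 higher and 4 lower, against 22.8% of all tested genes. The claudin and plaque genes CLDN1, CLDN7, TJP3 and CGN had every knockdown value below every control value, and F11R and MARVELD2 had every knockdown value above. That makes 6 of 9 genes without overlap between groups, where 54.8% of all tested genes did not overlap, so the count itself is close to the background. In the lower direction it was 4 of 9 against 19.2% of all tested genes, and in the higher direction 2 of 9 against 35.6%. The median log2 difference of the 9 genes was -0.41 (-0.46 without CLDN4), against 0.09 over all tested genes.

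**Figure D1:**
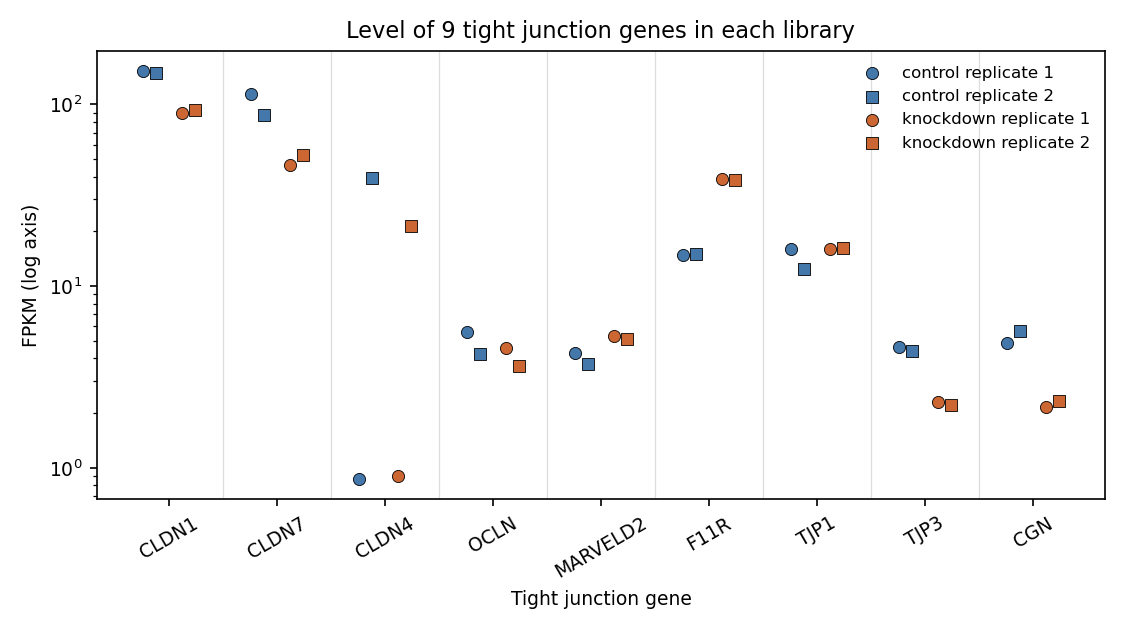
Level of each of the 9 genes in FPKM (log axis) in the control libraries (blue) and knockdown libraries (orange), with circles for replicate 1 and squares for replicate 2 and each point a single library. CLDN1, CLDN7, TJP3 and CGN lie lower in both knockdown libraries and F11R lies higher, whereas CLDN4 is split by replicate number, below 1 FPKM in both replicate 1 libraries.

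The sequences before the start sites are shown for 3 of the 4 genes that lay lower without overlap, none of which passed the test. CGN and TJP3 were picked for the motif each holds, and CLDN1 because another claudin starts in its sequence on the opposite strand. The CLDN7 sequence is not shown. RefSeq windows of 300 bases, from 250 before to 50 after a start, were found for 8 of the 9 genes, 14 windows in all (build GRCh38.p14), with F11R not among them. Bases in annotated untranslated regions were left out, and capitals mark a match to a motif searched on both strands, either CACCTG or CAGGTG (the E-box bound by SNAI repressors, which read as each other on the opposite strand) or AACCNGTT (bound by grainyhead-like factors).
CGN (chr1:151511137-151511386, plus strand): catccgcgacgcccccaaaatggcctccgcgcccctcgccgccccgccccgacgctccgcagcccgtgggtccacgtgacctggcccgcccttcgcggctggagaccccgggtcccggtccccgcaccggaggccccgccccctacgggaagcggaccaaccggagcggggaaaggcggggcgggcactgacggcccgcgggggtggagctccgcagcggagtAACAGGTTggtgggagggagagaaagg
TJP3 (chr19:3721487-3721736, plus strand): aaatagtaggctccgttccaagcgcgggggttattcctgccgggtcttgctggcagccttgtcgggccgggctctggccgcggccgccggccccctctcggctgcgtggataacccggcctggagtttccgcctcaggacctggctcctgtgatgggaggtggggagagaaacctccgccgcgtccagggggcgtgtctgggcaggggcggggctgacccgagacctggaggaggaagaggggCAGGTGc
CLDN1 (chr3:190322476-190322696, minus strand): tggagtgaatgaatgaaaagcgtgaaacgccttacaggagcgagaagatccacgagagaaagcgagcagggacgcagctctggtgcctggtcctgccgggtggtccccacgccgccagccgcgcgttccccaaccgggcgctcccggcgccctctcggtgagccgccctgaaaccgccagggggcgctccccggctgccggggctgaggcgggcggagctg
The CGN sequence held AACAGGTT, a match to AACCNGTT read on the other strand, beginning 27 bases before the start. This motif occurred in 1.73% of 35116 windows of the same length, and in 1 of the 14 windows of these genes. The TJP3 sequence, at the downstream of its RefSeq starts, held CAGGTG beginning 7 bases before the start. An E-box of this kind occurred in 20.6% of all windows and in 5 of the 14 windows here. The 4 genes holding one were CLDN7 and TJP3, which lay lower without overlap, and OCLN and TJP1, whose groups overlapped. The downstream CLDN7 window held 5 E-boxes, beginning 174, 135, 20 and 9 bases before the start and 5 bases after it. The CLDN1 sequence held neither motif. Such matches describe letters only and say nothing about whether a factor binds.

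CLDN1 and CLDN7 were the most abundant of the 9 genes in every library. CLDN1, the barrier claudin found through all living layers of the epidermis, is encoded on chromosome 3 (ENSG00000163347, minus strand, chr3:190305701-190322475 in GENCODE 29, GRCh38). It was listed at 152.52 and 149.32 FPKM in control and at 89.99 and 93.09 FPKM in knockdown libraries. The groups were far apart relative to their spread: the lower control library exceeded the higher knockdown library 1.60-fold, and libraries within a group differed by at most 1.03-fold. The mean went from 151 ± 2.26 to 91.5 ± 2.19 FPKM (SD, n = 2 per group), 1.65-fold lower. On the log2(FPKM + 1) scale the difference was -0.72 (SE 0.11, 95% interval -0.99 to -0.44). The limma adjusted p was 0.0768, above the threshold of 0.05, and CLDN1 did not pass under any of the 14 alternative settings, where its adjusted p ranged from 0.0552 to 0.281 and its difference stayed below 0.

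CLDN16, better known as a claudin of the kidney tubule, has an annotated start on the plus strand 66 bases from that of CLDN1, inside the CLDN1 sequence shown above. CLDN16 was listed at 1.48 and 1.28 FPKM in control and at 0.21 and 0.20 FPKM in knockdown libraries, so it too lay lower without overlap. It was tested only because its control mean reached 1 FPKM, which favours a lower knockdown value. Its log2 difference was -0.98 (SE 0.16), with a limma adjusted p of 0.0872. Its ratio of means, 6.73-fold lower, was larger than that of CLDN1, but the counting error of these low values is unknown. No exon of CLDN1 overlaps an exon of another gene in GENCODE 29.

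CLDN7, which also lies along the lateral membrane outside the strands, was lower in both knockdown libraries. Its values were 114.42 and 88.01 FPKM in control and 46.46 and 52.85 FPKM in knockdown libraries. The control libraries differed from each other 1.3-fold, less than the gap of 1.67-fold between the closest libraries of the 2 groups. The mean was 2.04-fold lower, 101 ± 18.7 against 49.7 ± 4.52 FPKM (SD, n = 2 per group), with a log2 difference of -1.004 (SE 0.17, 95% interval -1.45 to -0.56). The limma adjusted p was 0.0878 and ranged from 0.0607 to 0.27 over the 14 alternatives. CLDN7 (ENSG00000181885, chr17:7259903-7263983, minus strand) shares exons with the readthrough gene AC003688.1, listed at 0 in all libraries, and overlaps ELP5 on the opposite strand (13.07 to 16.72 FPKM).

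CLDN4, a claudin of the granular layer, had by far the largest spread within groups. It was listed at 0.87 FPKM in control replicate 1 and 39.27 FPKM in control replicate 2, and at 0.90 and 21.46 FPKM in knockdown replicates 1 and 2. Both replicate 1 libraries were thus near 1 FPKM and both replicate 2 libraries were high, a 45.1-fold gap in the control group and a 23.8-fold gap in the knockdown group. The pooled SD within groups was 2.84 on the log2(FPKM + 1) scale, against 0.0191 for F11R, 0.214 for OCLN and a median of 0.143 over all tested genes. Only 2 of 12411 tested genes, MIR1244-1 and AC006011, had a larger one. The ratio of means, 1.80-fold lower in the knockdown, therefore describes the replicate 2 libraries, where it was 1.83-fold, while the replicate 1 libraries were at a ratio of 1.03. The log2 difference was -0.41 with a 95% interval from -5.29 to 4.47 (limma adjusted p = 0.914), an interval that spans large differences in either direction. With the replicate number as a block, the same difference of -0.41 had an interval from -1.20 to 0.38 and did not pass either (adjusted p = 0.35). It was 1.80 without control replicate 2 and 1.37 without knockdown replicate 1. CLDN4 (ENSG00000189143, chr7:73799542-73832693, plus strand) shares no exon with another gene in GENCODE 29, and how reads were divided among its 5 transcripts in the table is not given in the sources used here.

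Neither MARVEL gene passed the test. OCLN, which codes for occludin, was listed at 5.59 and 4.25 FPKM in control and at 4.59 and 3.62 FPKM in knockdown libraries. These ranges overlapped, and the log2 difference of -0.21 had a 95% interval from -0.68 to 0.26 (limma adjusted p = 0.519). The partial copy OCLNP1, an unprocessed pseudogene on the same chromosome, stood at 0.77 and 3.90 FPKM in control and at 1.94 and 1.09 FPKM in knockdown libraries, so the split of reads between the copies is uncertain. MARVELD2, which codes for tricellulin, the protein of corners between cells, was listed at 4.30 and 3.74 FPKM in control and at 5.33 and 5.12 FPKM in knockdown libraries. The knockdown values lay above the control values by at least 1.19-fold, with a log2 difference of 0.31 (95% interval -0.01 to 0.63) that did not pass (limma adjusted p = 0.227).

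F11R, which codes for the junctional adhesion molecule JAM-A, was the gene that rose. Its values were 14.84 and 15.10 FPKM in control and 39.04 and 38.21 FPKM in knockdown libraries. Replicates differed by no more than 1.02-fold in either group, and the closest libraries of the 2 groups differed 2.53-fold. The mean rose 2.58-fold, from 15.0 ± 0.184 to 38.6 ± 0.587 FPKM (SD, n = 2 per group), with a log2 difference of 1.31 (SE 0.10, 95% interval 1.05 to 1.57). The limma adjusted p was 0.0418 and F11R ranked 20 of 12411 genes by p. It passed under 6 of 14 alternatives, with an adjusted p from 0.0301 to 0.245. The call was lost when any 1 library was left out (0.175 to 0.245), under median centring (0.0514), without the trend of spread with level (0.0642), with the replicate number as a block (0.098) and without the filter (0.17), while the difference stayed between 1.20 and 1.57 throughout. F11R (ENSG00000158769, chr1:160995211-161021348, minus strand) shares exons with the readthrough gene AL591806.3, which did not exceed 0.04 FPKM.

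None of the 3 plaque genes passed the test, and they lay on either side of 0. TJP1, the scaffold ZO-1 that links claudins to actin, was listed at 16.04 and 12.41 FPKM in control and at 15.91 and 16.19 FPKM in knockdown libraries, and the groups overlapped. Its log2 difference of 0.17 had a 95% interval from -0.22 to 0.57 (limma adjusted p = 0.53), and it came to 0.0008 without control replicate 2. TJP3, the related scaffold ZO-3, was listed at 4.60 and 4.39 FPKM in control and at 2.29 and 2.22 FPKM in knockdown libraries. Each group was tight and the mean was 1.99-fold lower, with a log2 difference of -0.76 (SE 0.12, 95% interval -1.06 to -0.45) and a limma adjusted p of 0.0819. CGN, which codes for cingulin, a plaque protein that binds ZO proteins and actomyosin, was listed at 4.89 and 5.68 FPKM in control and at 2.17 and 2.34 FPKM in knockdown libraries. Its mean was 2.34-fold lower, with a log2 difference of -0.95 (SE 0.13, 95% interval -1.29 to -0.60) and a limma adjusted p of 0.0747. Of the 9 genes CGN had the next smallest p after F11R, rank 167 of all tested genes, and it passed under 1 of 13 alternatives (0.0447, with libraries scaled to equal sums of FPKM).

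**Figure D2:**
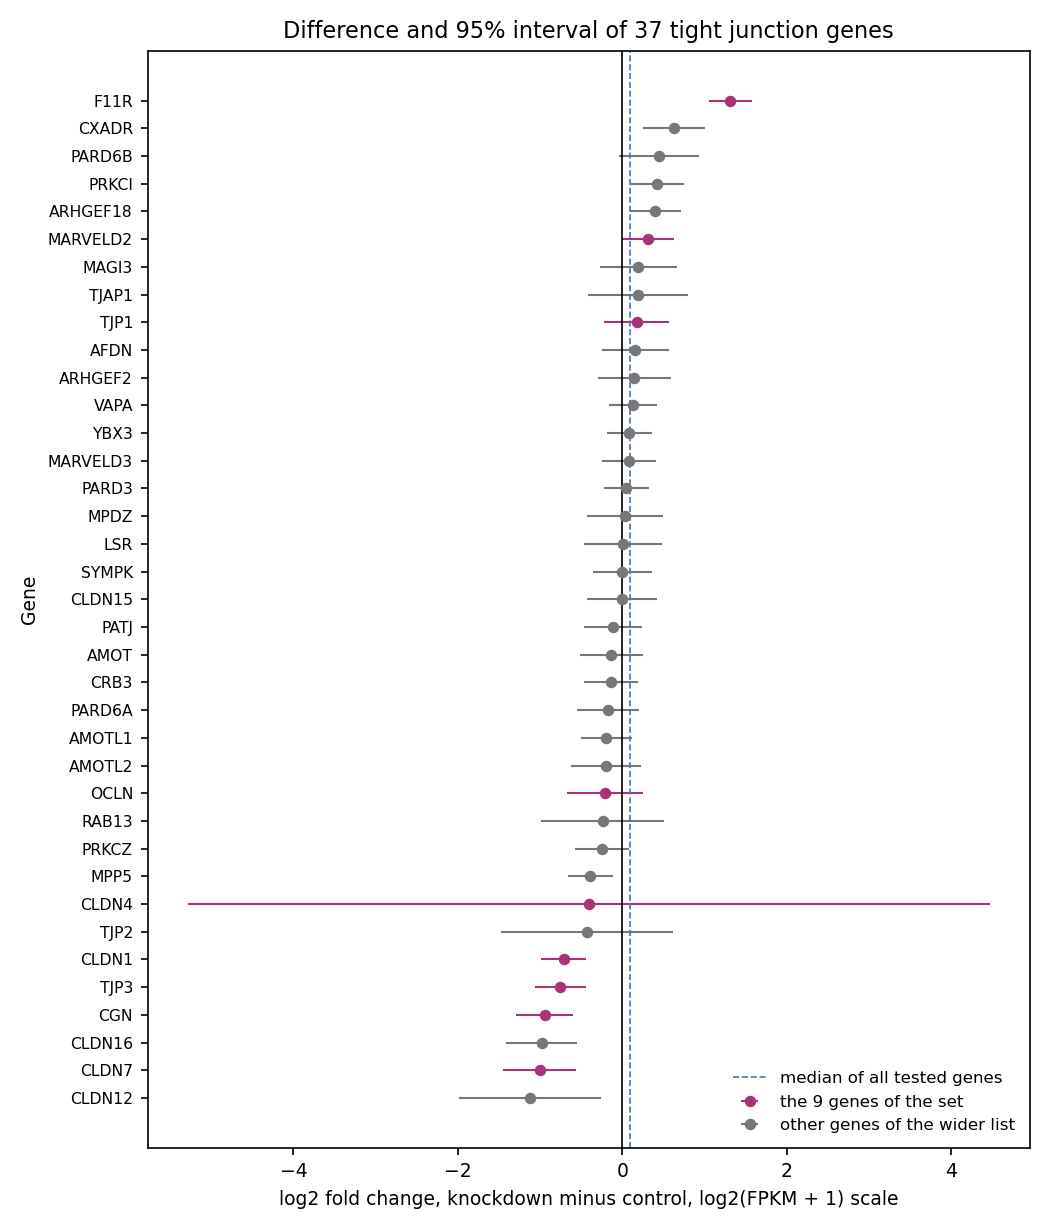
Log2 difference (knockdown minus control, log2(FPKM + 1) scale) with its 95% interval from limma for the 9 genes (purple) and 28 other tested tight junction genes (grey), sorted by difference, with the median of all tested genes as a dashed line. F11R stands at the top at 1.31, CLDN7, CGN, TJP3 and CLDN1 lie between -1.004 and -0.72 near the bottom, and the interval of CLDN4 runs from -5.29 to 4.47.

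The balance among these genes within a library does not depend on how libraries are scaled, so it was described by ratios of FPKM. CLDN1 stood 10.3 and 9.89 times above F11R in control and 2.31 and 2.44 times in knockdown libraries. TJP1 stood 3.49 and 2.83 times above TJP3 in control and 6.95 and 7.29 times in knockdown libraries, and 3.28 and 2.18 times above CGN in control against 7.33 and 6.92 times in knockdown libraries. In these 3 ratios the knockdown libraries lay apart from the control libraries by more than the gap between replicates. The ratio of CLDN1 to CLDN7 moved less, from 1.33 and 1.70 to 1.94 and 1.76. Its groups did not overlap, but the gap between them was smaller than the gap between replicates. CLDN1 to CLDN4 gave 175 and 3.80 in control and 99.99 and 4.34 in knockdown libraries and so followed the replicate number. The first 3 ratios describe unequal shifts within a pair, which were not tested, and none of the ratios tells which gene of a pair changed.

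**Figure D3:**
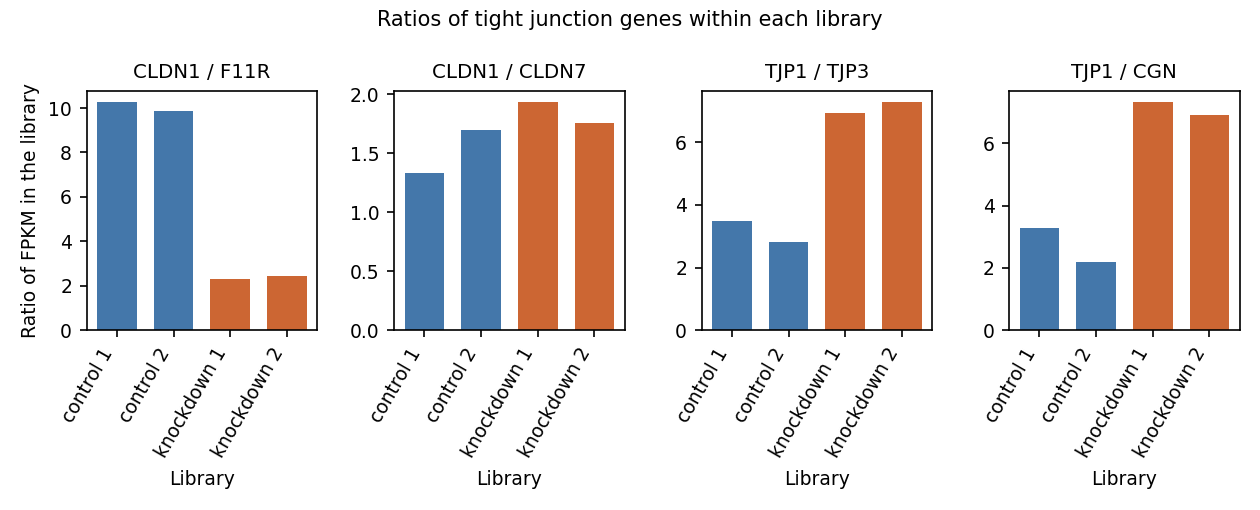
Ratio of FPKM between pairs of tight junction genes in each of the 4 libraries (blue control, orange knockdown, 1 bar per library). CLDN1 over F11R drops from 10.3 and 9.89 to 2.31 and 2.44, and TJP1 over TJP3 and TJP1 over CGN are higher in both knockdown libraries. CLDN1 over CLDN7 is also higher in both, by less than the gap between replicates.

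By level, CLDN1 and CLDN7 came first and second in both groups, and neither overlapped its neighbours in that order. The places that follow go by group means, and the range of CLDN4 in each group reached below 1 FPKM and so overlapped every gene placed after it. In control libraries CLDN4, F11R and TJP1 followed with overlapping ranges, then CGN, OCLN and TJP3, each overlapping the next. MARVELD2 came last (3.74 to 4.30 FPKM) and overlapped OCLN (4.25 to 5.59 FPKM) but not TJP3. In knockdown libraries F11R came next, clear of the genes above and below it, TJP1 overlapped CLDN4, MARVELD2 and OCLN followed, and TJP3 and CGN were lowest with overlapping ranges and the same mean, 2.25 ± 0.0495 and 2.25 ± 0.120 FPKM (SD, n = 2). F11R made up 4.67% and 4.69% of the summed FPKM of the 9 genes in control and 18.9% and 16.3% in knockdown libraries. The sum itself, without CLDN4, was 317 and 283 FPKM in control and 206 and 214 FPKM in knockdown libraries. In bulk RNA, fewer cells with a transcript and less of it per cell cannot be told apart.

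A wider list of 67 names, covering claudins, junctional adhesion molecules, angulins, polarity complexes and other plaque proteins, had 64 rows in the table, of which 37 were tested and 27 were not (highest value 0.84 FPKM). F11R was the 1 gene of this list that rose over all genes and none fell. At an unadjusted p under 0.05 there were 4 higher and 7 lower of 37, against 14.8% and 8% of all tested genes, and the median log2 difference was -0.0011, or 0.0026 for the 28 genes outside the 9. Of the 6 tested claudins CLDN1, CLDN7, CLDN12 and CLDN16 lay lower without overlap, as 19.2% of all tested genes did, while the groups of CLDN4 and CLDN15 overlapped. CLDN16 passed the filter only through the control group (mean 1.38 against 0.205 FPKM), which favours a lower knockdown value. The count of lower claudins and the median of the 6 include it. CLDN15 was at a difference of -0.0011 (limma adjusted p = 0.998), and the median of the 6 was -0.85. A further 18 claudins were below the filter, 6 of them at 0 in all libraries.

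Outside the 9 genes the smallest p-values on the list belonged to CLDN16 (above), CXADR, MPP5 and CLDN12, and none passed over all genes. CXADR, an adhesion molecule of the same family as JAM-A and the receptor of coxsackieviruses, was listed at 2.56 and 2.00 FPKM in control and at 4.07 and 4.03 FPKM in knockdown libraries (log2 difference 0.63, SE 0.14, limma adjusted p = 0.114). MPP5, the polarity scaffold PALS1, was listed at 9.90 and 9.48 FPKM in control and at 7.13 and 7.16 FPKM in knockdown libraries (log2 difference -0.39, SE 0.10, adjusted p = 0.137). CLDN12, a claudin that lacks the usual PDZ-binding end, was listed at 14.01 and 16.55 FPKM in control and at 9.27 and 4.39 FPKM in knockdown libraries (log2 difference -1.13, SE 0.33, adjusted p = 0.152). In each of these 3 the groups did not overlap, as in 54.8% of all tested genes. Picking genes by small p favours that outcome.

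The genes whose profile over the 4 libraries was nearest to that of CLDN1, by Euclidean distance of log2(FPKM + 1) values from the control mean among 3795 genes that averaged 10 FPKM or more, were AKR1A1 (distance 0.0441), FAM210B (0.05) and LITAF (0.0573). AKR1A1, an aldehyde reductase, was listed at 24.10 and 24.39 FPKM in control and at 14.21 and 14.94 FPKM in knockdown libraries. The nearest to F11R were ARL2BP (0.13), the transferrin receptor TFRC (0.305) and the alarmin IL1A (0.323), each farther away than the nearest 3 of CLDN1. ARL2BP was listed at 9.21 and 10.02 FPKM in control and at 25.78 and 23.06 FPKM in knockdown libraries. With 4 libraries in 2 groups, likeness of profile mostly reflects a similar ratio between groups.

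**Figure D4:**
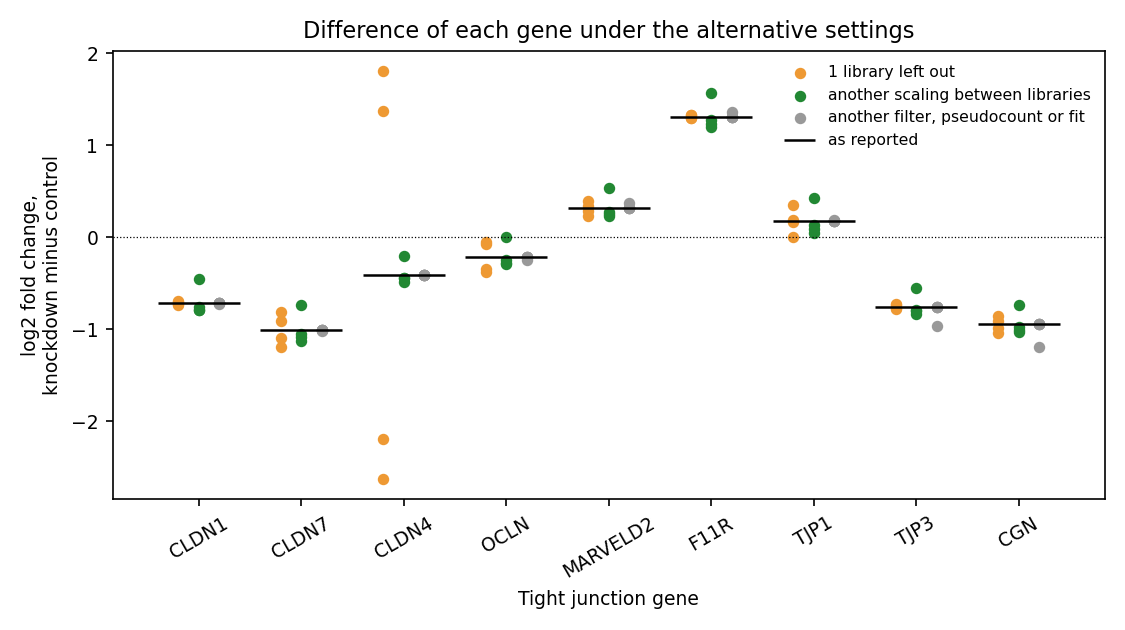
Log2 difference of each of the 9 genes (knockdown minus control) under the alternative settings, each point a setting, coloured by kind, with the reported value as a black line. F11R stays between 1.20 and 1.57 and CLDN1, CLDN7, TJP3 and CGN stay below 0, while CLDN4 runs from -2.62 to 1.80 when 1 library is left out and OCLN reaches 0.0073 with equal library sums.

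The ratios of the authors' deposited table lay within 0.00435 of the ratio of group means for all 9 genes, from 0.43 for CGN to 2.58 for F11R. The log2 ratio of CLDN4 is -0.84 in the authors' deposited table, a value that does not show the split between replicates.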

How the data were processed

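Polyadenylated RNA of 4 libraries (2 control, 2 knockdown) was sequenced as paired reads of 150 bases, per the labels' protocols. The submitters' processing notes name HISAT2 2.0.4, StringTie 1.3.4d and cutadapt 1.9 beside edgeR and DESeq2 without saying what each did. For build, annotation, strand setting and multi-mapping nothing is given in the sources used here. The authors deposited FPKM values with 2 decimals, and a ratio (fold) of group means with its log2, per the file headers. Because FPKM is a share of a library, abundant transcripts move all other values. Summed FPKM was 319780 and 338424 in control and 271297 and 274976 in knockdown libraries. Scaling to equal sums therefore raises knockdown values relative to control values.

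Since the table holds no counts, values were transformed as log2(FPKM + 1), and limma 3.58.1 (R 4.3.3) was fitted to the 12411 genes that averaged 1 FPKM or more in a group. Group was the sole term, the trend option was on and the robust option off. Tests were two-sided, adjusted over all 12411 genes by Benjamini-Hochberg, with a threshold of 0.05. The log2 scale understates changes of low genes, and each fold in the text is instead a quotient of FPKM, either of group means or of single libraries. Permuting 2 libraries against 2 could reach no lower p than 0.333 (exact, two-sided), so limma borrows the spread of other genes. Low FPKM values were checked for steps of whole reads: at the best depth 28.7% to 31.8% of values lay within 0.1 of a whole read, against a median of 17.3% to 17.9% over depths, so reads were not recovered.

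The members and lists were chosen with earlier results of these data known. The text names all 9 genes, WFDC21P and up to 4 further genes of the wider list with the smallest p. It also names the 3 genes nearest in profile to CLDN1 and to F11R. The choice of CLDN15, PRKCI, MIR1244-1, AC006011, OCLNP1 and those in the closing section followed a look at their values. Positions and exon overlaps came from GENCODE 29 (58552 of 58825 IDs matched) and promoter windows from RefSeq. Protein sequences were not used here. Alternatives were other pseudocounts, filters, scalings and limma options, a replicate block and leaving out each library; DESeq2 was not run on FPKM.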

Additional observations from a re-analysis of the deposited data

How the results depend on the processing

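The 4 genes that lay lower, CLDN1, CLDN7, TJP3 and CGN, and the 2 that lay higher, F11R and MARVELD2, kept their direction under all alternatives that were run. TJP1, whose groups overlapped, ranged from 0.0008 without control replicate 2 to 0.42 with equal library sums. OCLN turned to 0.0073 with libraries scaled to equal sums of FPKM, a setting added after the data were seen, and CLDN4 ranged from -2.62 to 1.80 when 1 library was left out. Of the 9 genes limma called 1; it called 0 without the filter, under median centring, with the trend off and with the replicate block, 0 to 0 when 1 library was left out (5 or 6 at an unadjusted p under 0.05), and 2, F11R and CGN, with equal sums. On the wider list it called 1, and 0 without the filter, under median centring, with the trend off and with the replicate block. At an unadjusted p under 0.05 these settings gave, in that order, 13 of 57 genes, then 12, 11 and 13 of 37. Over all tested genes they gave 3876 of 27624, then 2581, 2810 and 3791 of 12411. With equal sums limma called 5 of the wider list: F11R, CXADR and PRKCI higher, CGN and CLDN16 lower. Over all genes it called 31 (14 higher, 17 lower), and 56 with the stricter filter of 5 FPKM, 57 with quantile normalization (17 higher, 40 lower), 37 with median centring (13 higher, 24 lower), 17 with the trend off, 0 without the filter (3876 at an unadjusted p under 0.05), 0 to 0 when 1 library was left out (1797 to 2251) and 1340 with equal sums (1212 higher, 128 lower). Equal sums moved the median log2 difference of all genes from 0.09 to 0.31, and WFDC21P then passed at -1.43 (adjusted p = 0.0427). The replicate block left 0 calls over all genes (3791 at an unadjusted p under 0.05), with F11R at an adjusted p of 0.098; same-numbered libraries deviated together at a Pearson r of 0.124 across genes, which are not independent replicates, and the labels do not say that the numbers mark a shared batch. Leaving a library out gives the lone library of its group the spread of the other group. Depth is unknown, so the low values of OCLN, MARVELD2, TJP3 and CGN have an unknown counting error.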

Other observations

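The split of CLDN4 by replicate number was rare in the table. Among 12411 tested genes 5 had replicate 2 at least 10 times above replicate 1 in both groups, with at least 1 FPKM in the higher library of each: CLDN4, the small nucleolar RNA SNORD27 and the clone-named genes AC000120, AC024267 and AL354740. SNORD27 stood at 0.18 and 6.73 FPKM in control and at 0.19 and 19.00 FPKM in knockdown libraries. The reverse order was found for 2 genes, SNORD65 and AL137782, and 12 genes were 10 times apart in both groups in opposite orders. CLDN4 had the highest levels of the 7 genes split alike in both groups. The 2 genes with a larger spread than CLDN4 were of the opposite-order kind: MIR1244-1 was listed at 287.5 and 0.11 FPKM in control and at 0.14 and 259.22 FPKM in knockdown libraries, and AC006011 at 30.77 and 0.54 FPKM in control and at 0.24 and 36.63 FPKM in knockdown libraries.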
